A study of Mus musculus with 10 samples.

Results

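The genes described here are 10 members of the Sox family of transcription factors, Sox2, Sox4, Sox5, Sox6, Sox9, Sox11, Sox12, Sox13, Sox15 and Sox21, taken by name from the 45706 genes of the deposited tables. All 10 were among the 20165 genes with enough reads to be tested. They were followed through the reprogramming of mouse fibroblasts by Oct4 (Pou5f1), Klf4, Sox2 and Myc, with 2 RNA-seq libraries at each of 5 stages. Every library was labelled C57BL/6 x 129, and all carried the same batch label. Embryonic fibroblasts (MEF) came from mice with a polycistronic OKSM cassette at Col1a1 and the transactivator M2rtTA at Rosa26, and were grown in MEF medium with no doxycycline and not sorted. Cells at day 3, day 6 and day 9 had the same genotype and were kept in ESC medium with 1 µg/ml doxycycline and 50 µg/ml ascorbic acid. No sort was applied at day 3, whereas SSEA1+ cells were collected at days 6 and 9. SSEA1 is a surface antigen gained by cells that advance towards pluripotency. Embryonic stem cells (ESC) were the V6.5 line, labelled with no cassette, in ESC medium on irradiated feeder cells and unsorted. Induction, medium and ascorbic acid therefore change together between MEF and day 3, and day and sort between day 3 and day 6. Genotype, medium additives and sort change together between day 9 and ESC. The factors within each of these steps cannot be told apart. The labels do not say whether the 2 libraries of a stage came from separate cultures or animals, so p-values measure only the spread between these libraries.

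Sox proteins bind DNA through an HMG box, which recognises a short AT-rich element in the minor groove and bends the helix. They usually act with a partner protein, and SOX2 with the POU factor OCT4 on composite elements is the best known pair in pluripotent cells. The family is divided into groups by sequence: SoxB1 (Sox2) and SoxB2 (Sox21), SoxC (Sox4, Sox11, Sox12), SoxD (Sox5, Sox6, Sox13), SoxE (Sox9) and SoxG (Sox15). SoxB1 proteins activate transcription, SoxB2 proteins mostly repress it, SoxC proteins serve progenitor survival and neuronal differentiation, SoxD proteins have no activation domain of their own, and SOX9 drives cartilage formation.

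Libraries held between 29585876 and 38275024 estimated reads assigned to transcripts. Levels are given as read counts scaled by TMM-adjusted library size (CPM), and as length-scaled abundance (TPM) where genes are compared with each other, since TPM accounts for transcript length. A gene was called when its edgeR quasi-likelihood adjusted p was under 0.05 and its log2 fold change was at least 1 in size. The summed CPM of 10 fibroblast markers was 48630 and 47230 in MEF, 3630 and 3622 at day 3, between 64.6 and 156 at days 6 and 9, and 4171 and 4314 in ESC. In ESC this was 8.85% of the MEF level, with single markers between 1.11% (Lum) and 14.0% (Thy1). The 8 pluripotency markers summed to 1.85 and 2.32 CPM in MEF and to 3350 and 3414 in ESC. The induced libraries stood apart from MEF and ESC in sex-linked genes, which were looked at after their values were seen. Mean Xist was 1010, 1304 and 1075 CPM over days 3, 6 and 9, against 0.766 for MEF and 10.2 for ESC. Mean Ddx3y was 0.0713, 0.164 and 0.0987 CPM over the same days, against 88.5 for MEF and 26.5 for ESC. In the comparison of day 3 with MEF, that difference, induction, medium and ascorbic acid cannot be told apart. When ESC is compared with day 9, the sex-linked difference cannot be told apart from genotype, medium additives and sort.

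Of the 10 Sox genes, 9 were called in at least 1 of 5 comparisons, and their courses differed. The share of all tested genes called in at least 1 comparison was not computed, but is no lower than the 46.1% called in ESC against MEF. Sox2 rose at day 3 and stayed high. Sox13, Sox11 and Sox21 were highest at day 6 or day 9 and far lower in ESC. Sox15 was highest in ESC, Sox4 and Sox9 were highest in MEF, Sox5 and Sox6 were highest at day 3, and Sox12 was not called in any comparison. At day 3 against MEF, 5 members were called higher and 2 lower, where 14.6% and 14.5% of all tested genes were called in those directions and 29.1% in either. The median log2 fold change of the members there was 1.21, against 0.08 for all tested genes. Sox2, which the induced cassette carries, is among the 5 called higher and is counted in that median. These are bulk samples, in which fewer cells of a type and less RNA per cell cannot be told apart.

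At day 6 against day 3, 3 members were called higher and 2 lower, beside 9.26% and 10.2% of all tested genes and 19.5% in either direction. Between day 9 and day 6, 2 were called higher and 1 lower, beside 5.18%, 2.68% and 7.87%. In ESC against day 9, 1 was called higher and 5 lower, where the shares of all tested genes were 18.6%, 14.3% and 32.9%. In ESC against MEF, 4 were called higher and 5 lower, with 25.5%, 20.6% and 46.1% of all tested genes called. The members' median log2 fold changes in these 4 comparisons were 0.42, -0.15, -0.98 and -0.33, and those of all tested genes 0.03, 0.00, 0.00 and 0.10. Scaling by library size alone moved the median of all genes to 0.285 at day 3 and to 0.438 in ESC, both against MEF.

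**Figure D1:**
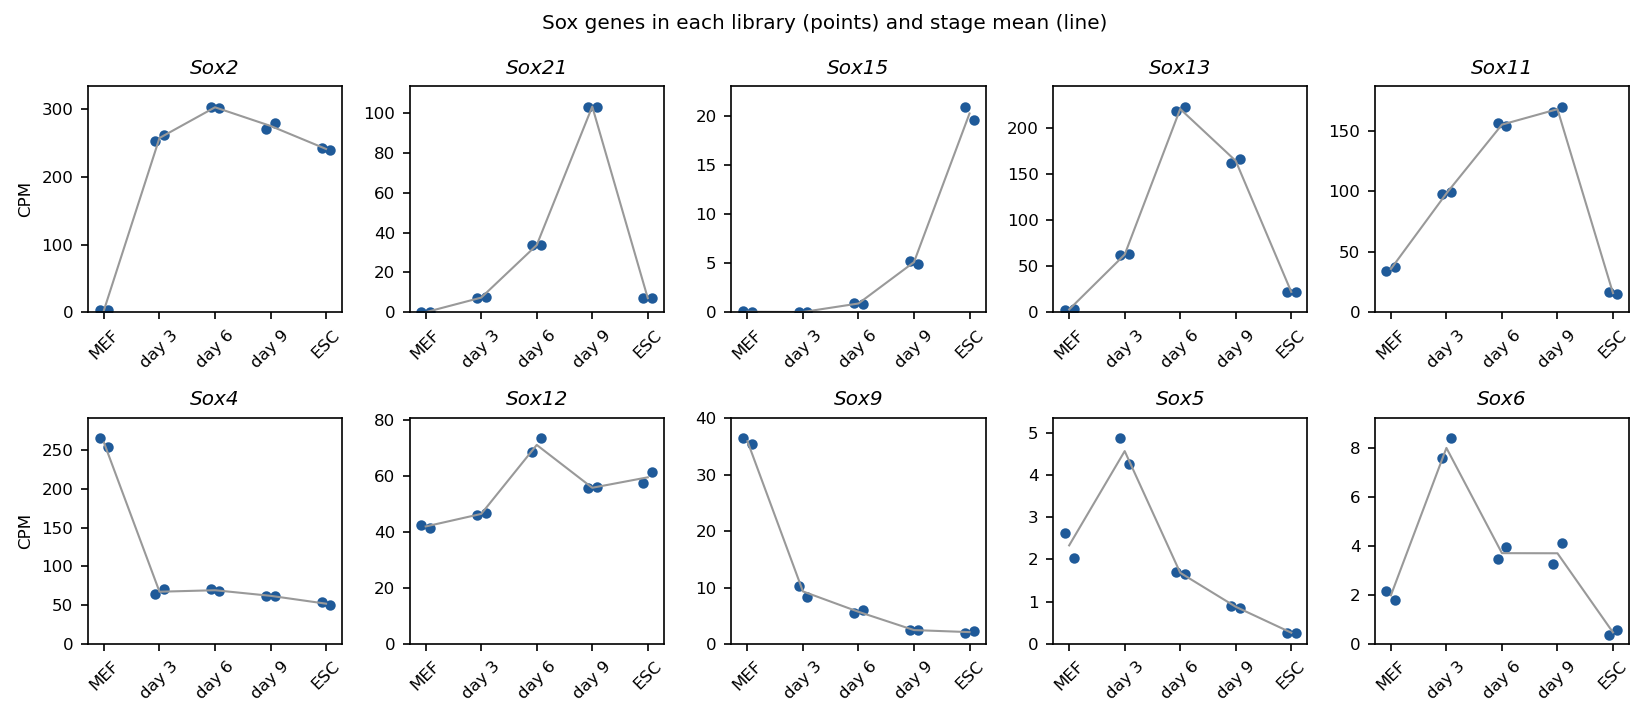
Level of each Sox gene in CPM (vertical axes, linear from 0, with a separate scale for each gene) at the 5 stages, with 1 point per library and a line through the stage means. The 2 libraries of a stage lie close together, and the peak falls in MEF for Sox4 and Sox9, at day 3 for Sox5 and Sox6, at day 6 for Sox2, Sox12 and Sox13, at day 9 for Sox11 and Sox21 and in ESC for Sox15.

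**Figure D2:**
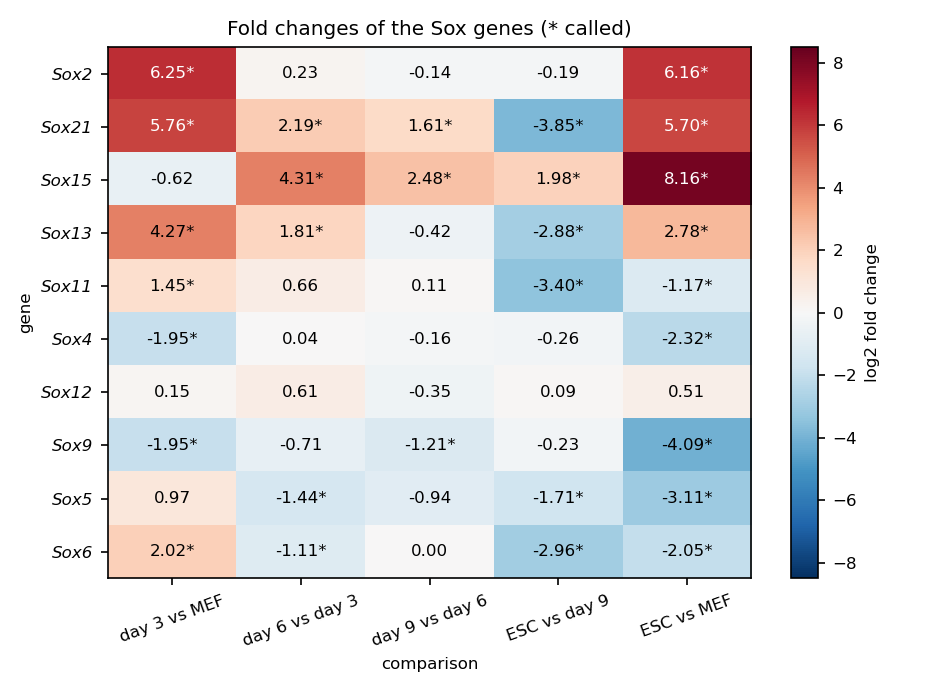
Log2 fold change of each Sox gene (rows) in the 5 comparisons (columns), first group over second, with colour from blue (lower) to red (higher) and a star where the gene was called by edgeR. Sox21 was called in all 5 comparisons, Sox12 in none, and 5 genes were called lower in ESC than at day 9.

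The sequence upstream of the start is shown for 5 members that were called higher at some stage, since their courses differed. The windows are the 250 bases before the RefSeq start (GRCm38.p6), given 5′ to 3′ on the gene's own strand. The Sox13 window was trimmed to the 85 bases outside the annotated exon. Capitals mark GGGNGNGG on either strand, overlapping matches included, a core of the GC-rich boxes that KLF and Sp factors recognise.
Sox2 (chr3:34649745-34649994, + strand): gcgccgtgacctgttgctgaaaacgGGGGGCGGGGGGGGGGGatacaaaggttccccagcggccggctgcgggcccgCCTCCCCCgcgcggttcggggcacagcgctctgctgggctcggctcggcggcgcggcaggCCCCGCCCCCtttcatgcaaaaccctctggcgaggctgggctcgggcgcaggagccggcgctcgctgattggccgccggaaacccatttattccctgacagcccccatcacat
Sox21 (chr14:118237031-118237280, - strand): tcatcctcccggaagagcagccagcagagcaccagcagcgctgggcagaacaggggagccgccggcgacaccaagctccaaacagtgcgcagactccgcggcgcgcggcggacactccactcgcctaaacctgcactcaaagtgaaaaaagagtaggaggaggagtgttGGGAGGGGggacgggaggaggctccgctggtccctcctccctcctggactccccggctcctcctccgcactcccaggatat
Sox11 (chr12:27342719-27342968, - strand): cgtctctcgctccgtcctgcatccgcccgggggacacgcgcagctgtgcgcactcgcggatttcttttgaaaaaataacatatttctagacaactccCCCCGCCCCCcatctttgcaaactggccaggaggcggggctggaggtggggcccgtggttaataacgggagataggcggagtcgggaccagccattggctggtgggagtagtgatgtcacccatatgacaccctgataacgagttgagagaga
Sox13 (chr1:133424378-133424462, - strand): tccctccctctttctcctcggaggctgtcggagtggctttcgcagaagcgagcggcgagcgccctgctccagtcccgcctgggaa
Sox15 (chr11:69654787-69655036, + strand): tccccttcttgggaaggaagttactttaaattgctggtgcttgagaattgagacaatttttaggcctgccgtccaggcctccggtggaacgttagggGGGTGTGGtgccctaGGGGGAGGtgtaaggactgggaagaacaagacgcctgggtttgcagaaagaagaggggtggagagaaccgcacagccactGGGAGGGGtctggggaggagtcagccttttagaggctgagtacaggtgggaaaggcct

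Windows were found for 9 of the 10 members, 14 in all because Sox6 has 6 listed starts, and none was found for Sox9. The KLF letters occurred in 8 of these 14 windows (57.1%), and in 45.9% of all 32851 promoter windows of that length. The Sox2 window held 9 matches, that of Sox15 3, that of Sox11 2 and that of Sox21 1. The SOX letters AACAAT occurred in 1 gene (Sox6) and the octamer ATGCAAAT in 1 gene (Sox12), beside 9.42% and 1.6% of all windows. The windows of Sox2, Sox11 and Sox21 were GC-rich at 72.0%, 58.0% and 65.2% G and C, with 27, 17 and 17 CpG dinucleotides, where the median window had 52.4% and 6. That of Sox15 had 55.6% and 5. The Sox2 window lies between annotated exons inside the span of the noncoding gene Sox2ot, and the Sox21 window overlaps an exon of Gm4675 on the opposite strand.

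Sox2, the SoxB1 gene of the cassette and a core factor of pluripotent cells, lies on chromosome 3 at 34650405-34652461 (+ strand, GRCm38, GENCODE M21). It measured 3.25 and 3.48 CPM in MEF, 253 and 262 at day 3, 304 and 302 at day 6, 271 and 280 at day 9, and 242 and 241 in ESC. Both MEF libraries were low and all 8 others lay within a narrow band, with no overlap between stages. Its log2 fold change at day 3 was 6.25 (SE 0.055, edgeR adjusted p = 4.0e-18), and the later steps were 0.23, -0.14 and -0.19, none of which reached the fold change minimum. All reads of Sox2 were assigned to 1 transcript of 2057 nt, so RNA from the cassette and from the gene's own locus cannot be told apart in the induced cells.

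The other cassette factors did not keep the proportions of Sox2 in ESC, a line labelled with no cassette. On the TPM scale Sox2 was 0.314 to 0.388 of Pou5f1 in the 6 induced libraries, against 0.077 and 0.075 in ESC. It was 0.362 to 0.409 of Klf4 in the induced libraries, against 1.35 and 1.28 in ESC. It was 0.576 to 0.618 of Myc in the induced libraries, against 10.4 and 10.6 in ESC. The ratio to Klf4 thus varied little among induced libraries and lay apart from both ESC libraries. From day 9 to ESC, Pou5f1 rose by 2.07 on the log2 scale, Klf4 changed by -1.17 and Myc by -3.94, all called by edgeR (adjusted p = 1.1e-13, 7.1e-13 and 3.9e-17). The change of Sox2 in the same step was -0.19 (SE 0.032, edgeR adjusted p = 1.0e-04), under the fold change minimum.

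**Figure D3:**
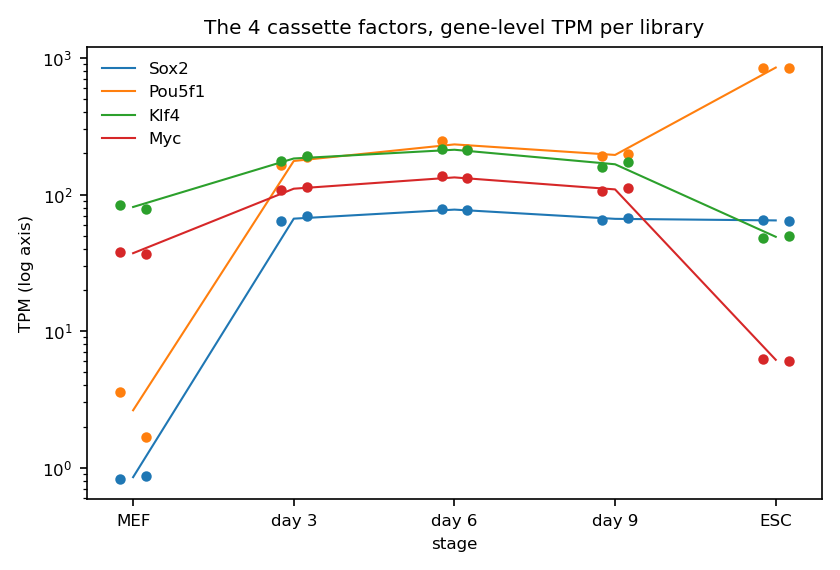
Gene-level TPM (log axis) of Sox2, Pou5f1, Klf4 and Myc at each stage, with 1 point per library and lines through the stage means. From day 3 to day 9 the 4 lines run nearly in parallel, and in ESC Sox2 stays near 65 TPM while Pou5f1 lies higher and Klf4 and Myc lie lower.

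Sox2ot, a noncoding RNA whose gene spans Sox2 on the same strand, was added after its values were seen. Its exons in the annotation do not overlap those of Sox2. It measured 0.111 and 0.152 CPM in MEF, 10.2 and 9.58 at day 3, 15.1 and 15.6 at day 6, 8.07 and 7.43 at day 9, and 1.53 and 0.748 in ESC. The induced libraries were all above both ESC libraries and both MEF libraries. Sox2ot rose at day 3 by 6.17 on the log2 scale (SE 0.30, edgeR adjusted p = 2.2e-10), from 8 reads in MEF to 704 at day 3, and was lower in ESC than at day 9 by -2.78 (SE 0.20, edgeR adjusted p = 1.8e-08). Sox2 itself was at almost the same level in ESC as at day 9.

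Sox21, the SoxB2 member, encodes a repressor that binds the same sites as SOX2 and is itself induced by SOX2 in several settings. It lies on chromosome 14 at 118233232-118237030 (- strand). It measured 0.07 and 0.18 CPM in MEF, 7.30 and 7.54 at day 3, 33.95 and 33.54 at day 6, 103 and 103 at day 9, and 7.07 and 7.24 in ESC. Each induced stage was above the one before it, and ESC lay just below the day 3 libraries. From 8 reads in MEF to 526 at day 3, the ratio of CPM was 55.5 (95% exact interval 27.9 to 129, counting error only). The log2 fold changes were 5.76, 2.19 and 1.61 at days 3, 6 and 9, each against the stage before, and -3.85 in ESC against day 9 (SE 0.19, 0.063, 0.048 and 0.059). Each of these was called, with edgeR adjusted p-values of 3.2e-12, 1.3e-12, 1.5e-11 and 7.5e-16. The opposite-strand gene Gm4675, which overlaps an exon of Sox21, reached at most 1.54 CPM.

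Sox15, the SoxG gene, encodes a factor whose HMG box is close to that of SoxB1 proteins and which can occupy SOX2 sites with OCT4. It lies on chromosome 11 at 69655314-69656727 (+ strand). It measured 0.11 and 0.03 CPM in MEF, 0 and 0.09 at day 3, 1.00 and 0.82 at day 6, 5.27 and 4.95 at day 9, and 20.9 and 19.5 in ESC. MEF and day 3 overlapped at 4 and 3 reads in all, and each later stage was above the one before it. The ratio of day 6 to day 3 was 21.5 (95% exact interval 7.025 to 107, counting error only), and that of ESC to MEF was 302 (118 to 1110). Day 9 was above day 6 by 2.48 on the log2 scale (SE 0.22, edgeR adjusted p = 8.0e-07), and ESC was above day 9 by 1.98 (SE 0.16, edgeR adjusted p = 6.9e-08). Sox15 passed the read filter through the later stages, so some difference between stages was built into its being tested. Mpdu1, on the opposite strand, shares exonic sequence with Sox15 and measured 28.4 and 31.3 CPM in MEF, where Sox15 had 3 reads and 1 read. Mpdu1 was also higher at the later stages, with 42.3 and 42.6 CPM at day 6, 47.5 and 50.4 at day 9, and 73.3 and 73.7 in ESC, and the part of shared reads in the Sox15 levels was not tested.

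Sox13, a SoxD gene known from T cell and neural development and also called an autoantigen of islet cells, lies on chromosome 1 at 133382303-133424377 (- strand). It measured 2.88 and 3.54 CPM in MEF, 62.2 and 63.1 at day 3, 218 and 223 at day 6, 162 and 166 at day 9, and 22.4 and 22.1 in ESC. The induced libraries were all above the ESC libraries, and both ESC libraries were above MEF. It rose by 4.27 on the log2 scale at day 3 (SE 0.069, edgeR adjusted p = 1.1e-15) and by 1.81 at day 6 (SE 0.039, edgeR adjusted p = 6.0e-14). In ESC it was lower than at day 9 by -2.88 (SE 0.044, edgeR adjusted p = 8.4e-16). Of its reads, 41.5% to 65.3% were assigned to Sox13-001 and 30.9% to 49.7% to Sox13-002 over the 10 libraries.

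The other SoxD genes, Sox5 and Sox6, act with SOX9 in cartilage and were low throughout. Sox6 measured 2.18 and 1.80 CPM in MEF, 7.62 and 8.42 at day 3, 3.47 and 3.96 at day 6, 3.28 and 4.14 at day 9, and 0.38 and 0.56 in ESC. Day 3 was above every other stage, days 6 and 9 overlapped, and ESC was lowest. Its log2 fold changes were 2.02 at day 3 (SE 0.19, edgeR adjusted p = 4.0e-07), -1.11 at day 6 (SE 0.18, edgeR adjusted p = 9.9e-05) and -2.96 in ESC against day 9 (SE 0.24, edgeR adjusted p = 7.5e-08).

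Sox5 measured 2.62 and 2.04 CPM in MEF, 4.87 and 4.26 at day 3, 1.71 and 1.66 at day 6, 0.90 and 0.86 at day 9, and 0.27 in both ESC libraries. By CPM the stages did not overlap, and day 3 was highest. Its log2 fold change at day 3 was 0.97 (SE 0.22, edgeR adjusted p = 0.0012), just under the fold change minimum, and it was 1.08 without the day 3 replicate 2 and 1.16 without the MEF replicate 1. It fell at day 6 by 1.44 (SE 0.22, edgeR adjusted p = 6.1e-05) and was lower in ESC than at day 9 by -1.71 (SE 0.32, edgeR adjusted p = 2.7e-04). In both genes the deposited transcript shares swung between the libraries of a stage, for example 81.4% and 31.8% of Sox5 reads on Sox5-005 in MEF, and 99.5% and 0% of Sox6 reads on Sox6-202 at day 6. Tests on TPM did not call the fall of either gene at day 6 (log2 differences of -0.34 and -0.81 with a pseudocount of 0.1, limma adjusted p = 0.46 and 0.0033). TPM depends on those shares only where transcripts differ in length, and Sox6-201, Sox6-202 and Sox6-204 are 8227, 8193 and 8079 nt long. Mean TPM of Sox6 was 0.475 at day 3 and 0.229 at day 6, so the pseudocount shrinks its log2 difference. TPM of Sox5 was 0.563 and 0.676 at day 3 and 0.567 and 0.382 at day 6, so these stages overlapped on that scale. The fall of Sox5 at day 6 thus depends on the unit, and what sets the units apart for Sox5 was not tested.

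Sox4, a SoxC gene active in many progenitors and mesenchymal cells, lies on chromosome 13 at 28948919-28953713 (- strand). It measured 266 and 254 CPM in MEF, 64.2 and 70.5 at day 3, 70.5 and 68.1 at day 6, 61.8 and 62.3 at day 9, and 54.0 and 49.8 in ESC. Only MEF was high, and days 3 and 6 overlapped. It fell at day 3 by 1.95 on the log2 scale (SE 0.049, edgeR adjusted p = 1.2e-13), to 25.9% of its MEF level, while the summed fibroblast markers were at 7.57% of theirs. At day 9 Sox4 was at 23.9% of its MEF level and the marker sum at 0.142%.

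Sox11, the SoxC gene best known from neurons, lies on chromosome 12 at 27334264-27342574 (- strand). It measured 34.4 and 37.4 CPM in MEF, 97.6 and 99.1 at day 3, 156 and 154 at day 6, 166 and 170 at day 9, and 16.5 and 15.4 in ESC. No stages overlapped, and ESC lay below MEF. It rose at day 3 by 1.45 on the log2 scale (SE 0.046, edgeR adjusted p = 1.6e-12) and was lower in ESC than at day 9 by -3.40 (SE 0.049, edgeR adjusted p = 4.4e-16), a 10.5-fold difference. Against MEF, ESC differed by -1.17 (SE 0.056, edgeR adjusted p = 8.6e-11), and by -0.83 with library-size scaling alone, which is under the fold change minimum.

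Sox12, the third SoxC gene, lies on chromosome 2 at 152393611-152398063 (- strand). It measured 42.6 and 41.3 CPM in MEF, 46.0 and 46.9 at day 3, 68.6 and 73.5 at day 6, 55.6 and 56.0 at day 9, and 57.5 and 61.5 in ESC. The stages did not overlap, but the highest stage mean (71.1 at day 6) was only 1.69 times the MEF mean. The day 6 step of 0.61 on the log2 scale (SE 0.049, edgeR adjusted p = 7.0e-08) was the largest of the 5, under the fold change minimum.

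Sox9, the SoxE gene, lies on chromosome 11 at 112782224-112787760 (+ strand). It measured 36.5 and 35.4 CPM in MEF, 10.3 and 8.28 at day 3, 5.47 and 5.93 at day 6, 2.41 and 2.50 at day 9, and 1.97 and 2.22 in ESC. Each stage lay below the one before it, with day 9 and ESC close together. It fell at day 3 by 1.95 (SE 0.097, edgeR adjusted p = 2.5e-10) and at day 9 against day 6 by 1.21 (SE 0.14, edgeR adjusted p = 9.2e-06). In ESC it was at 5.83% of its MEF level, where the fibroblast marker sum was at 8.85%; the part of feeder cells in the ESC levels of Sox9 and Sox4 was not tested.

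Compared by TPM, the family was led by different genes at different stages. Sox4 made up 67.8% and 65.9% of the summed TPM of the 10 genes in MEF. Sox2 made up 66.6% in both day 3 libraries, 51.2% and 51.1% at day 6, 49.2% and 49.4% at day 9, and 64.6% and 65.0% in ESC. The summed TPM was 39.9 and 38.4 in MEF, 96.1 and 104 at day 3, 153 and 151 at day 6, 133 and 136 at day 9, and 101 and 98.2 in ESC. With Sox2 left out, Sox13 was first at day 6 (59.1% and 59.2%) and at day 9 (43.9% and 45.3%), and Sox15 was first in ESC (46.6% and 44.5%). Without Sox2 the summed TPM of the other 9 was 39.03 and 37.52 in MEF, 74.4 and 73.6 at day 6 and 35.9 and 34.4 in ESC.

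**Figure D4:**
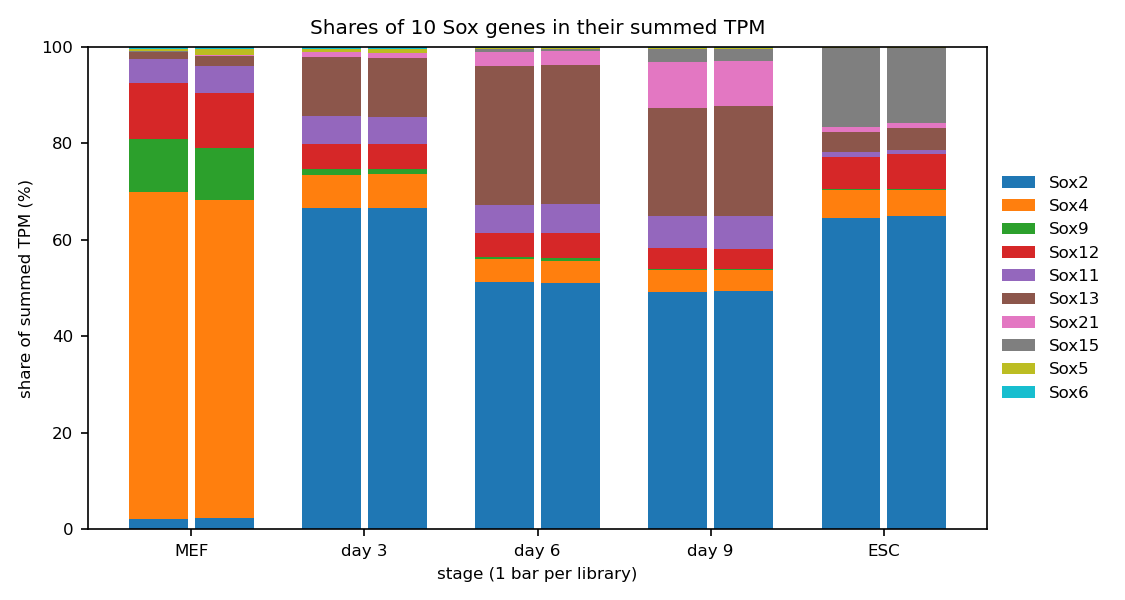
Share of each of the 10 Sox genes in their summed TPM (vertical axis, percent), with 1 stacked bar per library. The MEF bars are mostly Sox4, the day 3 and ESC bars are 64.6% to 66.6% Sox2, Sox13 takes 22.3% to 28.9% at days 6 and 9, and Sox15 takes 16.5% and 15.6% in ESC.

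The remaining Sox genes reached at most 15.3 CPM, a value of Sox1, which in ESC lay above the members Sox5, Sox6, Sox9 and Sox21. Of 10 further family members in the files, 8 were tested and 2 (Sox14 and Sry) were not. Sox1, another SoxB1 gene, had no reads in MEF and 4 at day 3, measured 7.29 and 7.26 CPM at day 6 and 12.6 and 13.1 at day 9, and reached 13.8 and 15.3 in ESC, at least 291-fold above the floor of 3 reads over the MEF group. Sox3, the third SoxB1 gene, measured 3.68 and 3.98 CPM in ESC and at most 0.051 in any other library. Sox7, Sox8, Sox10, Sox17, Sox18 and Sox30 stayed at or under 2.03 CPM in every library. Of the 8 tested genes, 1 was called higher and 3 lower at day 3 against MEF (14.6% and 14.5% of all tested genes), 2 and 1 at day 6 against day 3 (9.26% and 10.2%), and 0 and 0 by edgeR at day 9 against day 6 (5.18% and 2.68%), where Sox1 at 0.83 was under the fold change minimum (edgeR adjusted p = 3.8e-05). In ESC, 5 were called higher and 0 lower against day 9 (18.6% and 14.3% of all tested genes), and 5 and 1 against MEF (25.5% and 20.6%). Sox3, Sox17 and Sox18 passed the read filter through the ESC libraries alone, so their being higher there was built into their being tested.

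Genes known to be regulated through composite SOX2-OCT4 elements were described as a list of 7: Fgf4, Utf1, Fbxo15, Nanog, Pou5f1, Lefty1 and Spp1. At day 3 against MEF, 3 were called higher and 2 lower, beside 14.6% and 14.5% of all tested genes. At day 6 against day 3 the counts were 3 and 1 (9.26% and 10.2% of all tested genes), and at day 9 against day 6 they were 3 and 0 (5.18% and 2.68%). In ESC against day 9, 7 of 7 were called higher, where 18.6% of all tested genes were, with a median log2 fold change of 2.53 against 0.00 for all tested genes. Pou5f1 is itself a cassette gene. Fgf4, a growth factor with such an element in its enhancer, went from 1 read and 2 reads in MEF to 96.5 and 92.1 CPM at day 3, and reached 202 and 201 in ESC. Utf1, a chromatin factor, measured 0 and 0.030 CPM at day 3, 16.9 and 15.4 at day 6, 42.5 and 46.3 at day 9, and 251 and 264 in ESC. At day 3 Fgf4 was high while Utf1 was at 1 read or none. From day 3 to day 6 Sox2 changed by 0.23 and Pou5f1 by 0.41 on the log2 scale, and the SSEA1 sort was added. What sets the courses of Fgf4 and Utf1 apart was not tested.

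Among 4 POU factors that can pair with SOX proteins (Pou5f1, Pou2f1, Pou3f1, Pou3f2), 3 were called higher and 0 lower at day 3 (14.6% and 14.5% of all tested genes). Pou5f1, a cassette gene, is among these 3. At day 6 against day 3 the counts were 1 and 0 (9.26% and 10.2%). At day 9 against day 6 edgeR called 0 of the 4, with log2 fold changes between -1.07 (Pou3f2) and 0.03 (Pou3f1). In ESC against day 9, 2 were called higher and 1 lower (18.6% and 14.3%). Pou3f1, a POU factor of epiblast and glia, measured 0.15 and 0.30 CPM in MEF, 3.04 and 2.54 at day 3, 93.5 and 101 at day 6, 97.0 and 102 at day 9, and 12.8 and 13.7 in ESC. It was lower in ESC than at day 9 by -2.91 (SE 0.065, edgeR adjusted p = 3.7e-14), and Sox13, Sox11 and Sox21 were also lower there. Pou3f2 stayed at or under 0.412 CPM in all libraries.

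The 10 cartilage genes under SOX9 with SOX5 and SOX6 formed another list, of which 9 were tested. At day 3 against MEF, 1 was called higher and 7 lower (14.6% and 14.5% of all tested genes), and 2 higher and 3 lower at day 6 against day 3 (9.26% and 10.2%). At day 9 against day 6 the counts were 1 and 0 (5.18% and 2.68%). In ESC against day 9, 6 were called higher and 0 lower (18.6% and 14.3% of all tested genes), with Sox9 not called in that step (-0.23). Col2a1, the main cartilage collagen, was the one that rose: it measured 37.8 and 42.7 CPM in MEF, 110 and 109 at day 3, 1.73 and 1.75 at day 6, 1.29 and 1.67 at day 9, and 13.8 and 11.9 in ESC. Day 3, where Col2a1 was highest, was also the highest stage of Sox5 and Sox6, while Sox9 was at 25.9% of its MEF level. Acan, the cartilage proteoglycan, fell at day 3 by 3.99 on the log2 scale (SE 0.21, edgeR adjusted p = 5.2e-10), and Acan and Col9a2 were higher in ESC than at day 9 by 5.50 and 4.61 (SE 0.22 and 0.19, edgeR adjusted p = 2.4e-11 and 3.4e-11). The fibroblast markers also moved in that step, 9 of 10 being called higher, and their part in the rise was not tested.

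**Figure D5:**
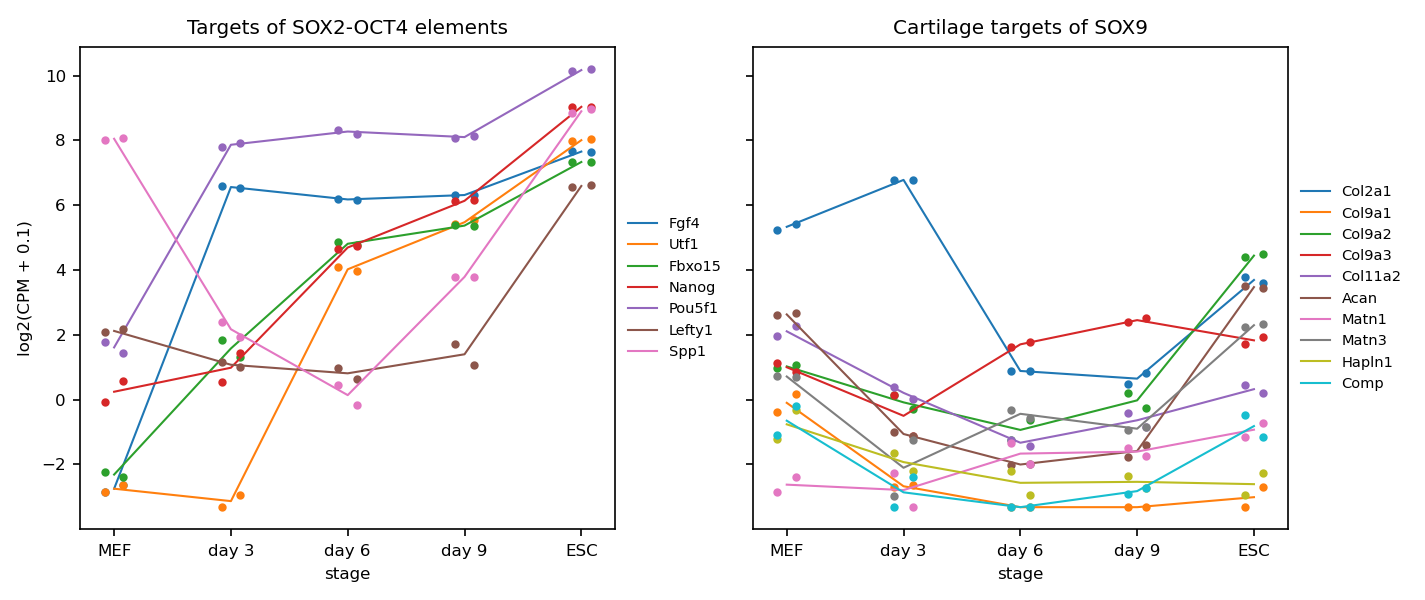
Level as log2(CPM + 0.1) of 7 genes with SOX2-OCT4 elements (left) and 10 cartilage genes (right) at the 5 stages, with 1 point per library and lines through the stage means. On the left Fgf4 is high from day 3, Fbxo15 climbs from day 3, Utf1 and Nanog climb from day 6, and all 7 are highest in ESC; on the right Col2a1 peaks at day 3, and Acan and Col9a2 are highest in ESC.

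Of 3 genes known as SoxC targets, Tubb3, a neuronal tubulin, measured 94.9 and 96.0 CPM in MEF, 0.43 and 0.50 at day 3, 3.95 and 4.57 at day 9, and 90.8 and 91.8 in ESC. Its lowest stages were therefore those in which Sox11 was above its MEF level. Dcx, a neuronal microtubule protein, measured 0.776 and 1.098 CPM in MEF, 0.108 and 0.118 at day 3, 2.12 and 1.75 at day 6, 7.88 and 7.60 at day 9, and 0.059 and 0.35 in ESC. Dcx fell at day 3 by 3.03 on the log2 scale (SE 0.52, edgeR adjusted p = 1.5e-04), the step in which Sox11 rose and Sox4 fell. In ESC it was lower than at day 9 by -5.19 (SE 0.39, edgeR adjusted p = 2.6e-08), as was Sox11. The part of any SoxC gene in these levels was not tested. Tead2 was not called in any comparison and stayed between 97.9 and 146 CPM.

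Markers of other lineages in which Sox genes act were also summed. The 8 neural progenitor markers summed to between 73.2 and 126 CPM in all libraries, most of it Nes, and the list includes Sox1 and Sox3. Of its 7 tested members, 4 were called higher and 1 lower in ESC against MEF (25.5% and 20.6% of all tested genes). The 4 were Sox1, Sox3, Pax6 and Olig2, of which Sox3 passed the read filter through ESC alone. Pax6 measured 7.87 and 8.31 CPM in ESC and at most 0.443 in MEF. Olig2 measured 20.7 and 18.8 in ESC and at most 0.030 in MEF. The 1 called lower was Fabp7, with 2.48 and 3.02 CPM in MEF and 0.206 and 0.347 in ESC. Nes was also lower in ESC than in MEF, by -0.5 on the log2 scale (edgeR adjusted p = 8.1e-08), under the fold change minimum. The 6 keratinocyte markers summed to 88.9 and 87.7 CPM at day 9, where Sox21 was highest, and to 56.7 and 60.9 in ESC, where Sox21 was low. In MEF and at days 3 and 6 they summed to at most 12.5. At day 9 against day 6, 5 of 6 were called higher (5.18% of all tested genes), with Krt5 at or under 0.579 CPM. Krt5, one of these 5, passed the read filter through the day 9 libraries, so its being higher there was built into its being tested. The 4 endothelial markers summed to 128 to 133 CPM at days 3 and 6 and 77.4 and 78.6 at day 9, most of it Tek, to 104 and 110 in ESC, most of it Pecam1, and to 4.65 and 5.31 in MEF. The 4 muscle markers, mostly Des, summed to 75.4 and 81.3 CPM in MEF, 4.35 to 7.91 in the induced libraries and 50.4 and 56.0 in ESC, with Myf5 at or under 0.030. Their part in the Sox levels was not tested.

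Likeness over the 10 libraries was described by Pearson's r of log2 CPM against 13314 tested protein-coding genes, with no test, since these libraries form only 5 stages and share their scaling. The genes most like Sox13 were Glb1l2 (r 0.9989) and Celsr2 (0.9977), those most like Sox2 were L1td1 (0.9985) and Rmi2 (0.9976), and those most like Sox21 were Nlk (0.998) and Nfasc (0.9963). For Sox4 they were Acvr2a (0.998) and Sc5d (0.9935), for Sox9 Pcdhgb6 (0.9965) and Phldb1 (0.9956), and for Sox11 Ndufa12 (0.9961) and Ccar2 (0.9959). For Sox5 they were L3hypdh (0.9978) and Sh3bgrl (0.9965), for Sox6 Fam173a (0.9956) and Acbd4 (0.9913), and for Sox15 Pm20d1 (0.9933) and Dnaaf5 (0.9917). Each of these 9 genes had 198 to 439 genes at r of 0.95 or more. Sox12 had 3, led by Ssbp4 (0.9642) and Idh3a (0.9565). Similar shape did not mean similar size: Nlk averaged 15.2 CPM in MEF and 63.3 at day 9, while Sox21 went from 0.128 to 103. Among the members themselves, Sox13 and Sox21 had r of 0.95, Sox2 and Sox4 -0.98, and Sox5 and Sox15 -0.95.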

How the data were processed

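RNA from 10 mouse libraries (TruSeq stranded mRNA, single 50-nt reads, per the labels) was sequenced, and the submitters' processing notes list Salmon 0.8.2 and mm10. The annotation release and the strand setting are not given in the sources used here, so reads of Sox4, Sox5, Sox15 and Sox21 in exons shared with opposite-strand genes are uncertain. The authors deposited, per transcript, estimated counts and TPM values for 109617 transcripts. Effective lengths were identical in all 10 tables. Both units were summed here to 45706 genes by the gene IDs in the transcript names, and the summed estimated counts were rounded to whole numbers.

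Genes were filtered with filterByExpr (minimum count 10, minimum total 15), which left 20165, and scaled with TMM. A model with a mean for each stage and all 10 libraries was tested by quasi-likelihood in edgeR 4.0.16 under R 4.3.3, with Benjamini-Hochberg adjustment over all tested genes. The common biological coefficient of variation was 3.75%. Tested on simulated counts for the comparison of day 3 with MEF (19028 genes), the script recovered 100% of 200 genes changed 4-fold, with 0 false calls. The changed genes had a mean of at least 1 CPM, and every gene was given the common coefficient of variation. The simulation therefore does not cover genes with few reads, such as Sox15 in MEF and at day 3. Standard errors were obtained by dividing each log2 fold change by the square root of its F statistic. Exact intervals (95%) of count ratios condition on the summed reads and cover counting error only. Alternatives were DESeq2 1.42.0, limma 3.58.1 on log2(TPM + 1) and log2(TPM + 0.1), other filters, scaling and prior counts, a replicate block and leaving out each library.

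The 2 libraries of each stage differed by more than sampling noise (chi-square per degree of freedom 2.78 to 5.05). Coordinates came from GENCODE M21 (GRCm38), in which 98.8% of genes were found, and upstream sequences from RefSeq (GRCm38.p6). The genes, gene lists and marker lists were chosen with earlier results of these data known. Genes named were all 10 members, the cassette factors, members of each list that were called with the largest changes, and the 2 most similar genes by r with a mean of at least 1 CPM.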

Additional observations from a re-analysis of the deposited data

How the results depend on the processing

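For the 50 fold changes of the 10 Sox genes, 689 values under alternatives were computed: 650 kept direction and side of the thresholds, 18 lost a call, 18 gained one and 3 changed sign, none of them a called value. The changes of sign were Sox15 at day 3 against MEF, -0.62 in the main fit but 0.39 when D3 replicate 1 was left out, 0.43 when MEF replicate 1 was left out, and from -4.27 to 0.43 over the libraries left out (4 reads or fewer per stage), and Sox4 at day 6 against day 3, 0.04 but -0.03 without D3 replicate 1. Members called higher at day 3 numbered 3 with limma on log2(TPM + 1), not 5. Members called lower at day 6 numbered 0, not 2, with the 10 CPM filter and with limma at either pseudocount, and at day 9 0, not 1, with log2(TPM + 1). In ESC against day 9 they numbered 3, not 5, with that filter and with log2(TPM + 1), and in ESC against MEF 3, not 5, with that filter and log2(TPM + 0.1) and 2 with log2(TPM + 1). The filter of 10 CPM dropped Sox5 and Sox6, and a pseudocount of 1 shrinks low genes; other causes were not tested. With no fold change minimum, 6 members were higher at day 6 (3 in the main fit) and 6 lower at day 9 (1 in the main fit). Without any 1 library the counts of members were within 1.5 times of the main ones. Over all genes, 5873, 3926, 1586, 6637 and 9290 were called in the 5 comparisons, 3022, 2014, 775, 2966 and 5067 of 11712 with the 10 CPM filter, 2663, 1401, 382, 2768 and 5055 with log2(TPM + 1), 991 at day 9 with log2(TPM + 0.1), and 13094, 11387, 6981, 14028 and 15442 with no fold change minimum. Same-numbered libraries did not deviate together from their stage means (mean r of deviations 1e-04, -0.02 to 0.022 over 10 pairs of stages). This cannot show whether they shared a culture or animal, which the labels do not say. With the replicate block 5 members were higher and 2 lower at day 3, with no call of a member changed. DESeq2, no filter and a prior count of 0.5 changed none either. Sox15 at day 3 against MEF was not tested when only those 2 stages were fitted. Depth limits Sox15 and Sox21 in MEF, with at most 8 reads over the 2 libraries.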
